A study of Mus musculus with 8 samples.

Results

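The glutathione, antioxidant and nitric oxide enzymes are described here as 57 genes of the 55358 genes in the deposited tables. They were chosen by name and not by any measured value: every gene named Gst followed by 1 letter and a number (22 cytosolic and mitochondrial glutathione transferases), every numbered Gpx (8 glutathione peroxidases), Prdx (6 peroxiredoxins) and Sod (3 superoxide dismutases), and 18 genes named singly. The 18 are Nqo1, Gclc, Gclm, Gsr, Gss, Txn1, Txn2, Txnrd1, Txnrd2, Srxn1, Cat, Nfe2l2, Keap1, Nos2, Nos3, Arg1, Arg2 and Ass1. The level of a gene is the sum of the FPKM values of its transcripts (fragments scaled to transcript length and to the mapped fragments of the library, so that levels can be set beside each other between genes).

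RNA was measured by sequencing of poly(A)-selected, strand-marked libraries from mouse embryonic fibroblasts (MEFs, cells grown from embryos). The study asked which RNAs depend on interleukin-6 (IL-6, an inflammatory cytokine that acts through STAT3) and on Arid5a, an RNA-binding protein known for stabilizing inflammatory messenger RNAs. The 4 groups were Arid5a-/- (KO) MEFs given 100 ng/ml IL-6 for 24 h, KO MEFs kept without IL-6 for 24 h, wild-type (WT) MEFs given 100 ng/ml IL-6 for 24 h, and WT MEFs kept without IL-6 for 24 h. Each group had 2 libraries, and the labels give neither the embryos, the strain nor the passage. Nor do they say whether the pair in a group was grown apart, so a p-value here reflects variation between library preparations that may be technical.

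Glutathione is a small thiol made from glutamate, cysteine and glycine, and it is the main soluble reductant of the cell. Peroxidases and peroxiredoxins use glutathione or thioredoxin to reduce peroxides, the transferases join glutathione to reactive compounds, and reductases restore the thiols with NADPH. Many of these genes are known targets of NRF2 (Nfe2l2), a transcription factor that binds antioxidant response elements and is held at low protein levels by KEAP1. Superoxide dismutases turn superoxide into hydrogen peroxide, and inducible nitric oxide synthase (Nos2) makes nitric oxide from arginine, which arginases also consume.

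The libraries held about 36700000 to 46200000 fragments each, fitted from the spacing of low FPKM values. Arid5a was measured at 8.47 and 8.15 FPKM in IL-6-treated KO and 5.51 and 6.85 in untreated KO, against 30.9 and 31.0 in IL-6-treated WT and 18.7 and 15.9 in untreated WT, so it was lower but not absent in the libraries labelled KO; the labels do not say which stretch was deleted. The KO and WT libraries also differed in sex-linked genes: Xist was at 55.2 to 61.0 FPKM in KO and 0.00139 to 0.00562 in WT, and Ddx3y at 0 to 0.00746 in KO and 34.6 to 36.6 in WT. All 12 fibroblast markers on the list were detected, with summed levels of 6295 to 6617 FPKM in KO and 8323 to 9607 in WT. They were split, with 5 higher and 7 lower in KO with IL-6, and 4 higher and 7 lower without it. Summed epithelial and mesothelial markers stood at 1614 to 1670 FPKM in KO, against 39.5 to 54.2 in WT, with 9 of 9 tested higher in KO in both conditions and Wt1 and Lrrn4 at 0 in all WT libraries. Adipocyte markers summed to 113.4 to 120.2 FPKM in KO (mostly Lpl) and 7.14 to 33.7 in WT (mostly Fabp4). In both conditions 3 of 4 tested were higher in KO and 1 was lower. Endothelial markers summed to 22.7 to 23.7 FPKM in KO and 15.1 to 17.4 in WT, with 2 of 3 tested higher and 1 lower in both conditions. Hepatocyte and erythroid markers summed to at most 0.827 FPKM in any library. Over all genes tested, 36.9% were higher and 34.8% lower in KO with IL-6, and 36.4% higher and 34.5% lower without it. Loss of Arid5a, the sex of the cells and the kind of cell grown therefore cannot be told apart in any KO against WT difference below, nor can fewer cells of a type and less RNA per cell.

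Of the 57 members, 47 reached 1 FPKM in at least 2 libraries and were tested, among 13693 genes. Tests were limma moderated tests on log2(FPKM + 1), adjusted over all 13693 genes (Benjamini-Hochberg), and a gene is called at an adjusted p below 0.05; each difference is given with its standard error on that log2 scale. With IL-6, 40 of 47 members were called between KO and WT, 31 lower and 9 higher in KO, where 71.7% of all genes tested were called (34.8% lower and 36.9% higher). Without IL-6, 37 of 47 were called, 32 lower and 5 higher, against 71.0% of all genes (34.5% lower and 36.4% higher). The median member difference was -0.50 with IL-6 and -0.47 without it, while the median over all genes was 0.0117 with IL-6 and 0.0069 without. The same 31 members were lower in KO in both conditions, 5 were higher in both, 5 were called in 1 condition and 6 in neither. Arg2, Gpx3, Gstk1, Gstm6, Gstt2, Gstt4 and Nos2 stayed below 1 FPKM in every KO library, and Gsta3 and Gsto2 in every WT library. These members passed the filter only through the other genotype, so the direction of their calls is not independent of the filter. Together the 57 genes made up 0.666% to 0.675% of summed FPKM in the KO libraries and 0.887% to 0.912% in the WT libraries.

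**Figure D1:**
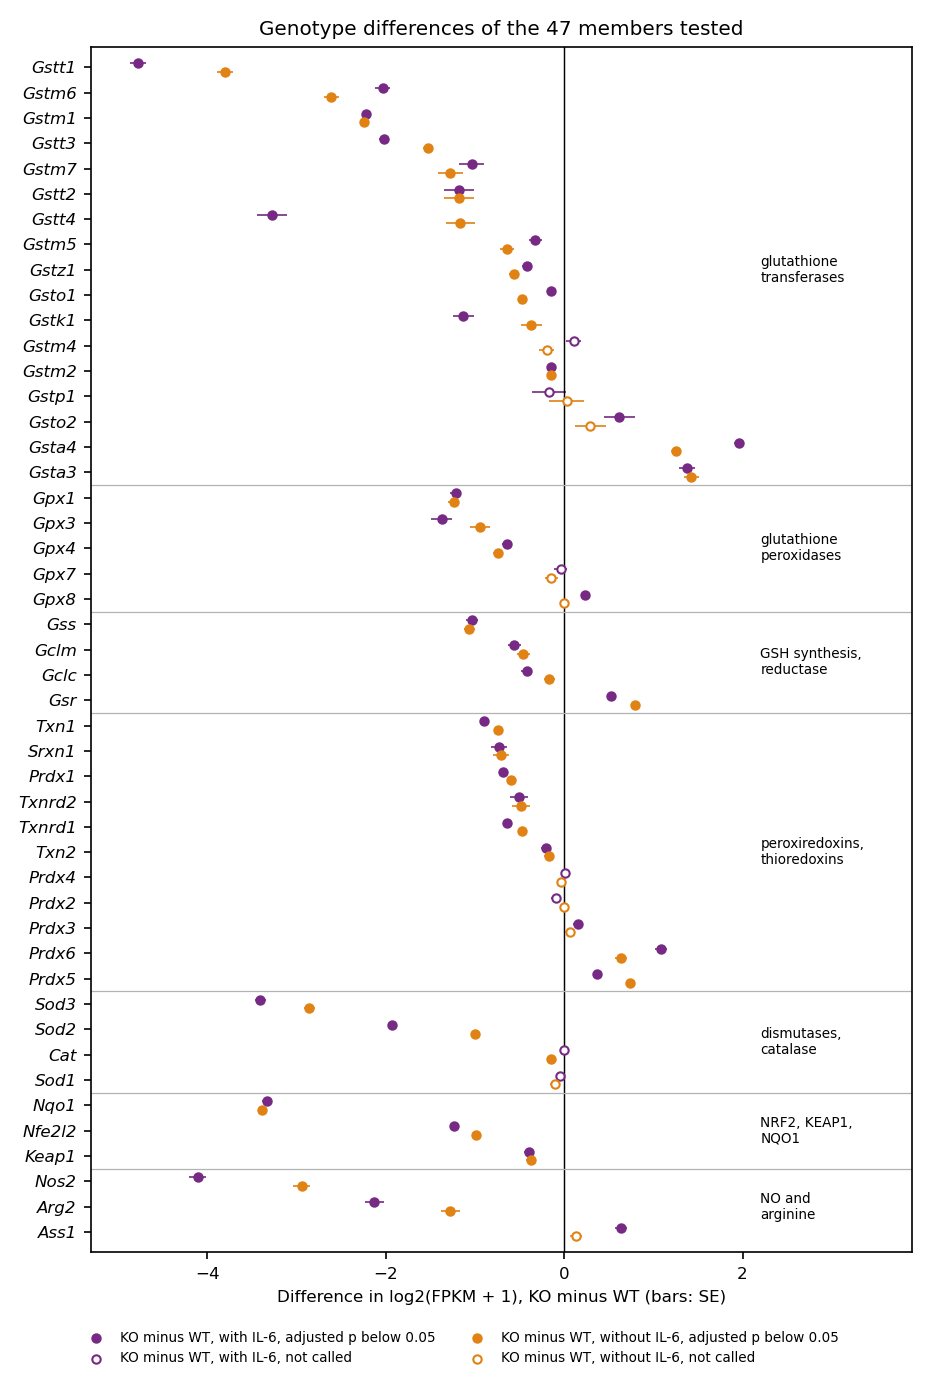
KO minus WT difference of each tested member on the log2(FPKM + 1) scale, with IL-6 and without IL-6, by family; bars show the standard error from limma over 2 libraries per group. Most points lie left of 0: 31 of 47 members were called lower in KO with IL-6 and 32 of 47 without it.

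In WT cells 21 of 47 members were called, 13 higher and 8 lower with IL-6, where 15.7% of all genes tested were called (8.30% higher and 7.41% lower). In KO cells no member was called by limma (2 had an unadjusted p below 0.05, as 7.49% of all genes did), and 3 of 13693 genes were called in all (0.0219%). The IL-6 change itself differed between KO and WT for 16 of 47 members, against 6.06% of all genes (2.54% with a more positive change in KO and 3.52% with a more negative one). In a fit with 2 libraries per group, the difference of changes is the least precise of the 5 comparisons: the count of 16 fell to 6 to 9 when any 1 of the 8 libraries was left out. Only Gsta4, Gstt1, Gstt4, Nos2 and Sod2 were called for this difference in every alternative run.

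Nfe2l2, Keap1 and Nqo1 were lower in KO cells in both conditions. Nfe2l2, encoding NRF2 (chr2:75675513-75704641, GRCm38), was measured at 43.0 and 42.1 FPKM in IL-6-treated KO and 42.0 and 41.3 in untreated KO, against 102 and 101 in IL-6-treated WT and 82.0 and 84.8 in untreated WT. All 4 KO values lay below all WT values, and the WT values with IL-6 lay above those without. KO minus WT was -1.24 ± 0.036, adjusted p = 6.44e-08 with IL-6 and -0.98 ± 0.036, adjusted p = 2.34e-07 without. In WT cells Nfe2l2 rose with IL-6 (0.28 ± 0.036, adjusted p = 0.00257), and the change in KO minus that in WT was -0.25 ± 0.051, adjusted p = 0.0344. That last call ended without any 1 of the 8 libraries (adjusted p = 0.0595 to 0.115) and under 5 other settings (adjusted p = 0.0508 to 0.0933). Keap1, the adaptor that marks NRF2 for degradation, was at 27.6 and 30.0 FPKM in IL-6-treated KO and 28.4 and 28.7 in untreated KO, against 38.1 and 37.9 in IL-6-treated WT and 39.1 and 35.5 in untreated WT. It was moderately lower in KO with IL-6 (-0.39 ± 0.059, adjusted p = 0.000589) and without IL-6 (-0.37 ± 0.059, adjusted p = 0.000783), and it was not called for IL-6 in either genotype.

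Nqo1, a quinone reductase widely used as a readout of NRF2 activity (chr8:107388225-107403206), was far lower in KO. Its level was 7.99 and 7.89 FPKM in IL-6-treated KO and 7.56 and 7.62 in untreated KO, against 85.0 and 93.6 in IL-6-treated WT and 87.5 and 89.4 in untreated WT. The KO libraries thus stood at 8.89% of the WT mean with IL-6 and 8.58% without it (-3.33 ± 0.052, adjusted p = 2.98e-09 and -3.38 ± 0.052, adjusted p = 2.99e-09). With IL-6 the Nqo1 change was 0.06 ± 0.052 in KO and 0.01 ± 0.052 in WT, neither of them called (adjusted p = 0.864 for KO and 0.912 for WT).

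**Figure D2:**
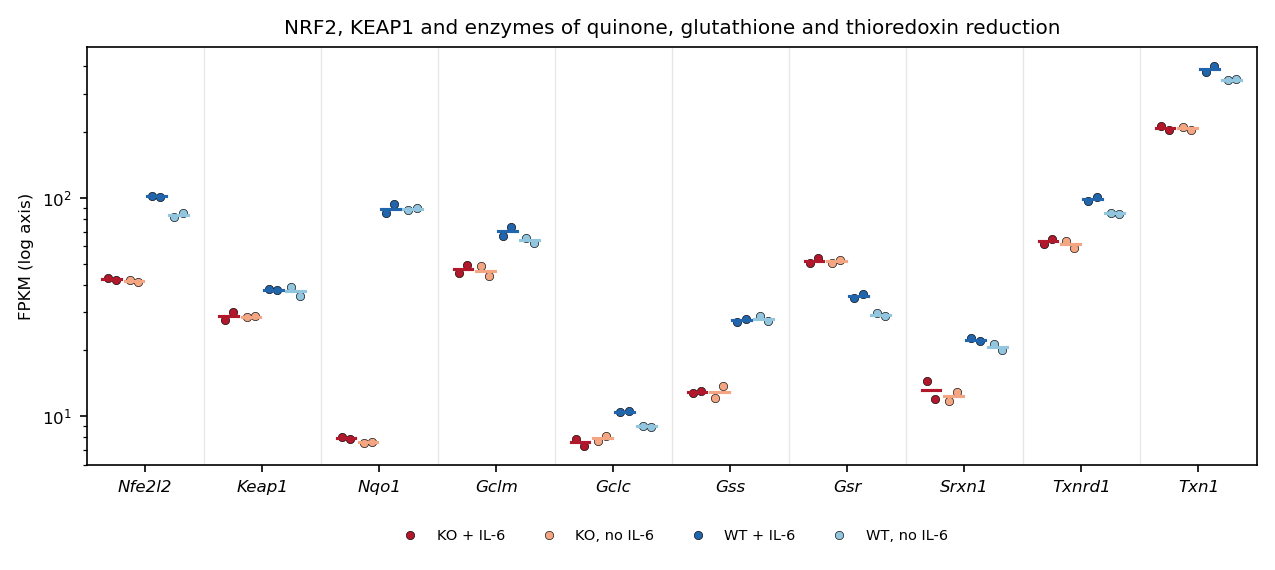
FPKM of 10 genes of the NRF2 system and of quinone, glutathione and thioredoxin reduction in the 8 libraries (log axis; points are libraries, lines the mean of 2). Nqo1 shows the widest gap, with all 4 KO libraries near 8 FPKM and all 4 WT libraries near 90, and Gsr is higher in KO.

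Glutathione synthesis runs through 2 steps. Gclc is the catalytic and Gclm the modifier subunit of the rate-limiting glutamate-cysteine ligase. Gclm was at 45.4 and 49.3 FPKM in IL-6-treated KO and 48.6 and 43.9 in untreated KO, against 66.8 and 73.7 in IL-6-treated WT and 65.7 and 62.1 in untreated WT. Gclm was lower in KO with IL-6 (-0.56 ± 0.072, adjusted p = 0.000255) and without IL-6 (-0.46 ± 0.072, adjusted p = 0.000783). Gclc had 7.89 and 7.27 FPKM in IL-6-treated KO and 7.69 and 8.11 in untreated KO, against 10.4 and 10.5 in IL-6-treated WT and 9.02 and 8.92 in untreated WT. The genotypes did not overlap, and the gap was smaller (-0.42 ± 0.059, adjusted p = 0.000407 with IL-6 and -0.16 ± 0.059, adjusted p = 0.0377 without). The call for Gclc without IL-6 ended without either untreated WT library, either WT with IL-6 library or either untreated KO library (adjusted p = 0.0542 to 0.168) and under 3 other settings (adjusted p = 0.0596 to 0.124). Gss, the synthetase of the second step, had 12.7 and 13.1 FPKM in IL-6-treated KO and 12.1 and 13.7 in untreated KO, against 26.9 and 28.0 in IL-6-treated WT and 28.7 and 27.3 in untreated WT. Its KO levels were 47.01% of WT with IL-6 and 46.1% without (-1.03 ± 0.064, adjusted p = 3.79e-06 and -1.06 ± 0.064, adjusted p = 3.43e-06). Gss overlaps Acss2 on the opposite strand, and whether the counting used strand is not stated, so reads of the shared stretch cannot be assigned.

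Gsr, the reductase that restores oxidized glutathione, went the other way. It was at 50.2 and 52.9 FPKM in IL-6-treated KO and 50.5 and 51.8 in untreated KO, against 34.9 and 36.1 in IL-6-treated WT and 29.7 and 28.6 in untreated WT. KO values lay above all WT values (0.53 ± 0.044, adjusted p = 2.15e-05 with IL-6 and 0.79 ± 0.044, adjusted p = 2.28e-06 without). In WT it rose with IL-6 (0.28 ± 0.044, adjusted p = 0.00633). Most of that KO against WT gap in FPKM lay in a transcript annotated as processed and not coding, Gsr-202, which averaged 19.4 FPKM in IL-6-treated KO and 19.2 in untreated KO, against 5.87 in IL-6-treated WT and 4.30 in untreated WT. The coding transcript Gsr-201 averaged 32.2 and 32.0 FPKM in KO with and without IL-6, against 29.6 and 24.8 in WT with and without IL-6.

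Promoter sequence was read for the members because Nfe2l2 and several known targets of NRF2 were lower in KO. Members did not all move this way, and Gsr, Gsta3, Gsta4, Prdx5 and Prdx6 were higher in KO in both conditions. RefSeq promoter windows of GRCm38.p6, from 250 bases before to 50 after a start, were found for 47 of the 57 members (60 windows). The antioxidant response element core was searched as TGACNNNGC on both strands; it occurs in 12.4% of 32851 windows of all genes and in 9 of the 60 member windows. A STAT site, searched as TTCNNNGAA, which reads alike on both strands, occurs in 8.3% of all windows and in 7 of the 60 member windows. Both shares are near those of all windows, and a match in letters is a description and no evidence of binding. The stretches below, 100 bases each with the match in capitals, are shown because their genes carry the results: Gclm, Prdx1, Txnrd1 and Nfe2l2 were lower in KO, Gsta3 was higher in KO with the same core, and Sod2 rose with IL-6 in WT. Of the 250 bases before each start, those of Nfe2l2 overlap an exon of E030042O20Rik and those of Txnrd1 an exon of Gm38560. Those of Prdx1, Txnrd1 and Sod2 also reach an exon of the gene itself, which the 100-base stretches do not.
Gclm, chr3:122245378-122245477, plus strand
Gclm: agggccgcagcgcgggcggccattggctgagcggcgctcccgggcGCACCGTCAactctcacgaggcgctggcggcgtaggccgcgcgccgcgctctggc
Prdx1, chr4:116685421-116685520, plus strand
Prdx1: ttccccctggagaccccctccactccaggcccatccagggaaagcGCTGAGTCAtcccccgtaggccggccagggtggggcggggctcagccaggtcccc
Txnrd1, chr10:82859069-82859168, plus strand
Txnrd1: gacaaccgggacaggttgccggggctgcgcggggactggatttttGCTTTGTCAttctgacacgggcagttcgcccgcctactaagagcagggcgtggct
Nfe2l2, chr2:75704814-75704913, minus strand
Nfe2l2: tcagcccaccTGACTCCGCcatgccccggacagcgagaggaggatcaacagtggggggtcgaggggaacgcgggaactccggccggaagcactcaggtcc
Gsta3, chr1:21240419-21240518, plus strand
Gsta3: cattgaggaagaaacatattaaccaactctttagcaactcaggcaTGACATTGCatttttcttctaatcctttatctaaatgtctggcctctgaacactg
Sod2 (STAT site), chr17:13007609-13007708, plus strand
Sod2: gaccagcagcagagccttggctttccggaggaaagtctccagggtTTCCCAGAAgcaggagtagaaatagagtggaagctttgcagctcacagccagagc

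The same core, on the strand read or its complement, also lies in the windows of Srxn1, Gstm5, Gstm7 and Sod1, and the STAT letters in those of Gstm6, Gsta1, Txnrd1, Gpx8 and Txn2. The genes with the antioxidant core did not move alike. Sod1 was not called in any comparison, Gsta3 was higher in KO, and the remaining 7 were lower in KO. Of all tested members, with or without the core, 66.0% were lower in KO with IL-6 and 68.1% without it. The shares over all genes tested were 34.8% and 34.5%. A link between the core and these differences was not tested.

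The theta-class transferases formed a block. Gstt1, Gstt2, Gstt3 and Gstt4, which conjugate small halogenated and other compounds, lie side by side on chr10:75774115-75837424 (GRCm38), a span of 63.3 kb. All 4 were lower in KO in both conditions (34.8% of all genes tested were with IL-6 and 34.5% without). Of these, Gstt2 and Gstt4 passed the filter only through WT. With IL-6 in WT 3 of 4 rose, where 8.30% of all genes tested did. Gstt1 was at 3.97 and 4.40 FPKM in IL-6-treated KO and 4.19 and 5.24 in untreated KO, against 143 and 139 in IL-6-treated WT and 77.1 and 79.6 in untreated WT. The highest KO library lay far below the lowest WT library, and the WT libraries with IL-6 stood above those without. The KO mean was 2.97% of WT with IL-6 (-4.78 ± 0.087, adjusted p = 5.91e-09) and 6.01% without it (-3.80 ± 0.087, adjusted p = 2.04e-08). IL-6 raised Gstt1 in WT (0.84 ± 0.087, adjusted p = 0.000984) with no call in KO (-0.14 ± 0.087, adjusted p = 0.792), and the changes differed (-0.97 ± 0.12, adjusted p = 0.00554).

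Gstt4 was listed at 0 in all 4 KO libraries. In WT it was at 9.01 and 8.37 FPKM with IL-6 and 0.854 and 1.71 without, about 276.6 and 259 fragments with IL-6 and 26.6 and 57.5 without. The rise in WT was 2.11 ± 0.17, adjusted p = 0.000239. The KO minus WT difference was -3.28 ± 0.17, adjusted p = 1.23e-06 with IL-6 and -1.16 ± 0.17, adjusted p = 0.000435 without, and the difference of the IL-6 changes was -2.11 ± 0.23, adjusted p = 0.00322. Against a group at 0 the KO minus WT values depend on the pseudocount. Gstt3 had 5.37 and 5.16 FPKM in IL-6-treated KO and 5.29 and 5.60 in untreated KO, against 24.5 and 24.4 in IL-6-treated WT and 17.1 and 18.1 in untreated WT. The gap held in both conditions (-2.02 ± 0.055, adjusted p = 4.39e-08 with IL-6 and -1.53 ± 0.055, adjusted p = 2.05e-07 without). It rose with IL-6 in WT (0.45 ± 0.055, adjusted p = 0.00193), and the difference of changes (-0.50 ± 0.078, adjusted p = 0.0131) ended without either WT with IL-6 library, untreated KO library 2 or KO with IL-6 library 2 (adjusted p = 0.0519 to 0.0551). For Gstt3, 26% of the 50-base stretches of its main transcript also occur in Gm20441, an overlapping readthrough gene at up to 1.61 FPKM. Gstt2 was at 0.729 and 0.464 FPKM in IL-6-treated KO and 0.308 and 0.659 in untreated KO, against 2.24 and 2.99 in IL-6-treated WT and 2.61 and 2.07 in untreated WT. Gstt2 was lower in KO (-1.18 ± 0.17, adjusted p = 0.000427 with IL-6 and -1.18 ± 0.17, adjusted p = 0.000440 without) and was not called for IL-6 in WT (0.11 ± 0.17, adjusted p = 0.724).

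**Figure D3:**
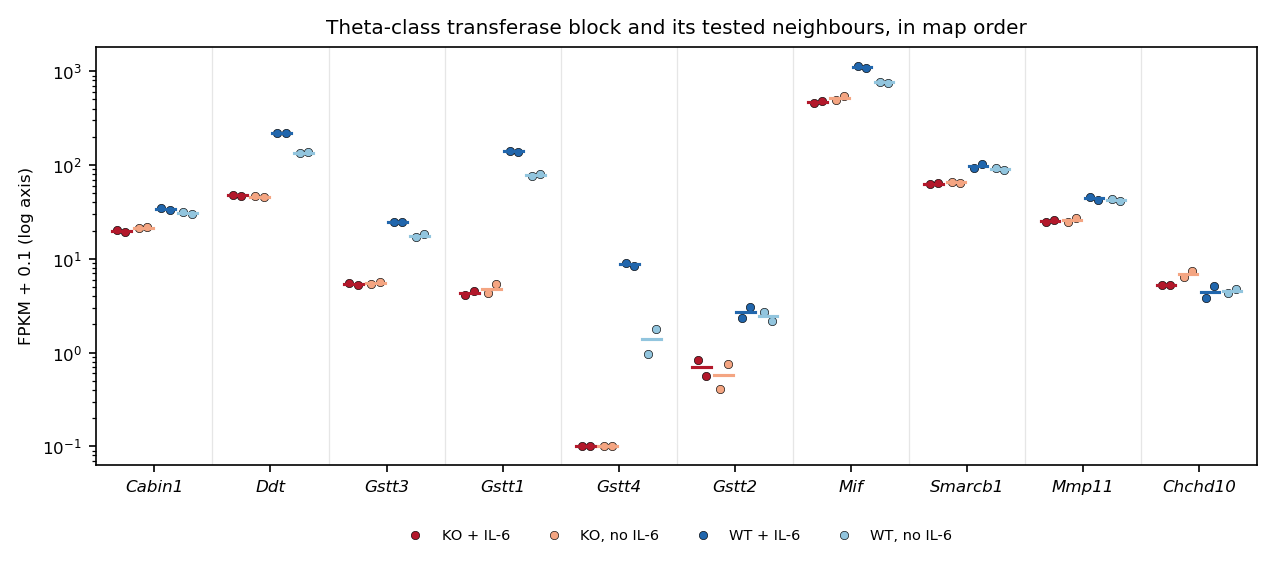
FPKM + 0.1 on a log axis for Gstt1 to Gstt4 and 6 tested neighbours within 100 kb in the 8 libraries, in map order; points are libraries and lines the mean of 2. Gstt1 stands at about 4 to 5 FPKM in KO and above 70 in WT, Gstt4 is listed at 0 in all KO libraries, and Ddt is lower in all KO libraries than in any WT library.

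Among 7 tested genes within 100 kb of the theta block that are not members, 5 were lower in KO in each condition (34.8% of all genes were with IL-6 and 34.5% without) and 1 (Chchd10, 0.52 ± 0.12) was higher without IL-6. Ddt, a tautomerase gene next to Gstt3 and named after its values were seen, was at 47.5 and 47.2 FPKM in IL-6-treated KO and 46.8 and 45.2 in untreated KO, against 218 and 222 in IL-6-treated WT and 133 and 137 in untreated WT. Its difference was -2.19 ± 0.036, adjusted p = 3.48e-09 with IL-6 and -1.53 ± 0.036, adjusted p = 2.23e-08 without, and it rose with IL-6 in WT (0.70 ± 0.036, adjusted p = 4.18e-05). Mif, which encodes macrophage migration inhibitory factor, also rose with IL-6 in WT (0.54 ± 0.060, adjusted p = 0.00121), with 457 and 487 FPKM in IL-6-treated KO and 492 and 547 in untreated KO, against 1136 and 1087 in IL-6-treated WT and 775 and 749 in untreated WT.

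The mu-class block on chr3:107895821-108044894 (149.1 kb) was lower as well. Of its 6 tested genes, 5 were called lower in KO in both conditions (34.8% of all genes tested were with IL-6 and 34.5% without). Among these, Gstm6 passed the filter only through WT. Gstm4 was the exception among the 6 (0.11 ± 0.084, adjusted p = 0.283 with IL-6 and -0.19 ± 0.084, adjusted p = 0.0724 without). Gstm1, the most abundant of them in WT, was at 31.7 and 33.2 FPKM in IL-6-treated KO and 35.6 and 36.7 in untreated KO, against 148 and 161 in IL-6-treated WT and 175 and 174 in untreated WT. Its KO mean was 21.0% of WT with IL-6 and 20.7% without it (-2.22 ± 0.048, adjusted p = 1.44e-08 and -2.24 ± 0.048, adjusted p = 1.49e-08), and 23.1% of its 50-base stretches are shared, first with Gstm2-ps1, which was also lower (-1.76 ± 0.099 without IL-6). Gstm6 was at 0.354 and 0.416 FPKM in IL-6-treated KO and 0.248 and 0.211 in untreated KO, against 4.79 and 4.55 in IL-6-treated WT and 6.92 and 6.09 in untreated WT. That was a large gap (-2.03 ± 0.087, adjusted p = 4.94e-07 with IL-6 and -2.61 ± 0.087, adjusted p = 1.36e-07 without). In WT Gstm6 fell with IL-6 (-0.40 ± 0.087, adjusted p = 0.0219) and the changes differed (0.57 ± 0.12, adjusted p = 0.0397). The first of these 2 calls ended without untreated WT library 1 or either WT with IL-6 library (adjusted p = 0.0713 to 0.106) and under 3 other settings (adjusted p = 0.0700 to 0.0831). The call for the difference of changes ended without any 1 of the 8 libraries (adjusted p = 0.0577 to 0.117) and under 3 other settings (adjusted p = 0.05005 to 0.116).

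Gstm5 and Gstm7 were lower by smaller steps. Gstm5 had 35.0 and 32.7 FPKM in IL-6-treated KO and 30.8 and 33.4 in untreated KO, against 40.2 and 45.1 in IL-6-treated WT and 53.1 and 48.2 in untreated WT (-0.32 ± 0.075, adjusted p = 0.00588 with IL-6 and -0.64 ± 0.075, adjusted p = 0.000156 without). It overlaps 4933431E20Rik on the other strand, which was higher in KO (1.15 ± 0.079 with IL-6). Gstm7 had 1.06 and 1.37 FPKM in IL-6-treated KO and 1.49 and 1.20 in untreated KO, against 3.13 and 3.95 in IL-6-treated WT and 4.14 and 5.25 in untreated WT (-1.03 ± 0.14, adjusted p = 0.000339 with IL-6 and -1.28 ± 0.14, adjusted p = 0.000106 without). Gstm2 was close to even, at 82.6 and 80.8 FPKM in IL-6-treated KO and 84.5 and 86.4 in untreated KO, against 88.5 and 92.9 in IL-6-treated WT and 92.3 and 97.5 in untreated WT. Its calls (-0.15 ± 0.043 with IL-6 and -0.15 ± 0.043 without) ended without untreated WT library 2 or untreated KO library 1 (adjusted p = 0.0778 to 0.0853) and with equal total FPKM per library (adjusted p = 0.0832) in the comparison without IL-6. In the comparison with IL-6 they ended without WT with IL-6 library 2 or KO with IL-6 library 2 (adjusted p = 0.0779 to 0.0878) and under 2 other settings (adjusted p = 0.106 to 0.311).

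Both tested alpha-class transferases were higher in KO in both conditions (36.9% of all genes tested were with IL-6 and 36.4% without). Gsta3 passed the filter only through KO. Gsta4, the transferase for the lipid peroxidation product 4-hydroxynonenal, was at 40.3 and 40.4 FPKM in IL-6-treated KO and 45.3 and 45.3 in untreated KO, against 9.42 and 9.87 in IL-6-treated WT and 19.5 and 17.5 in untreated WT. KO libraries were above all WT libraries (1.96 ± 0.056, adjusted p = 5.44e-08 with IL-6 and 1.25 ± 0.056, adjusted p = 6.73e-07 without). In WT Gsta4 fell with IL-6 (-0.87 ± 0.056, adjusted p = 0.000101), in KO it was not called (-0.16 ± 0.056, adjusted p = 0.583), and the changes differed (0.71 ± 0.079, adjusted p = 0.00327). Gsta3 was low but likewise higher in KO, at 1.62 and 1.68 FPKM in IL-6-treated KO and 2.02 and 2.04 in untreated KO, against 0.0397 and 0 in IL-6-treated WT and 0.103 and 0.153 in untreated WT (1.38 ± 0.087, adjusted p = 4.53e-06 with IL-6 and 1.43 ± 0.087, adjusted p = 3.91e-06 without).

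Transferases of the remaining classes differed among themselves. Gstz1, which is also the maleylacetoacetate isomerase of tyrosine breakdown, was at 18.4 and 17.9 FPKM in IL-6-treated KO and 19.0 and 19.1 in untreated KO, against 25.02 and 24.1 in IL-6-treated WT and 30.2 and 27.1 in untreated WT. It was lower in KO (-0.42 ± 0.058, adjusted p = 0.000362 with IL-6 and -0.56 ± 0.058, adjusted p = 7.05e-05 without). Its small fall with IL-6 in WT (-0.21 ± 0.058, adjusted p = 0.0483) ended without untreated WT library 1, either WT with IL-6 library, either untreated KO library or either KO with IL-6 library (adjusted p = 0.0767 to 0.188) and under 5 other settings (adjusted p = 0.0518 to 0.153). Gstk1, the mitochondrial and peroxisomal kappa form, was low throughout, at 0.364 and 0.426 FPKM in IL-6-treated KO and 0.464 and 0.582 in untreated KO, against 2.39 and 1.76 in IL-6-treated WT and 0.952 and 0.980 in untreated WT. It was lower in KO (-1.13 ± 0.12, adjusted p = 7.59e-05 with IL-6 and -0.37 ± 0.12, adjusted p = 0.0244 without). The call without IL-6 ended without either untreated WT library or untreated KO library 1 (adjusted p = 0.0697 to 0.108) and with a pseudocount of 5 (adjusted p = 0.0595). It rose with IL-6 in WT (0.64 ± 0.12, adjusted p = 0.0123), a call that ended without either untreated WT library or WT with IL-6 library 1 (adjusted p = 0.0549 to 0.0593) and with a fit of only the groups compared (adjusted p = 0.0631). The difference of the changes (-0.76 ± 0.17, adjusted p = 0.0431) ended without either untreated WT library, WT with IL-6 library 1, either untreated KO library or either KO with IL-6 library (adjusted p = 0.0879 to 0.129) and under 4 other settings (adjusted p = 0.0510 to 0.0972).

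Gsto1 and Gsto2 are the omega pair, which reduce dehydroascorbate and some arsenic compounds. Gsto1 was at 101 and 105 FPKM in IL-6-treated KO and 103 and 102 in untreated KO, against 112 and 115 in IL-6-treated WT and 139 and 146 in untreated WT. It was lower in KO without IL-6 (-0.47 ± 0.039, adjusted p = 2.03e-05) and fell with IL-6 in WT (-0.32 ± 0.039, adjusted p = 0.00185). Its difference with IL-6 (-0.15 ± 0.039) ended without WT with IL-6 library 2 or KO with IL-6 library 1 (adjusted p = 0.0525 to 0.0685) and with equal total FPKM per library (adjusted p = 0.253), and the difference of changes (0.32 ± 0.055, adjusted p = 0.0170) ended without untreated WT library 2, WT with IL-6 library 1, either untreated KO library or KO with IL-6 library 2 (adjusted p = 0.0570 to 0.0704). Gsto2 was at 1.35 and 0.971 FPKM in IL-6-treated KO and 1.25 and 1.001 in untreated KO, against 0.234 and 0.590 in IL-6-treated WT and 0.945 and 0.542 in untreated WT. Its KO minus WT difference was 0.62 ± 0.17, adjusted p = 0.0136 with IL-6 and 0.29 ± 0.17, adjusted p = 0.166 without. The call with IL-6 ended without WT with IL-6 library 1 or KO with IL-6 library 1 (adjusted p = 0.0832 to 0.0835). Gstp1, the pi form, was at 67.2 and 108 FPKM in IL-6-treated KO and 80.9 and 90.8 in untreated KO, against 92.7 and 99.7 in IL-6-treated WT and 88.9 and 79.4 in untreated WT. It was called in no comparison, though 62.3% of its 50-base stretches occur in Gstp2.

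Glutathione peroxidases reduce hydrogen and lipid peroxides. Of 5 tested, 3 were lower in KO in both conditions (34.8% of all genes tested were with IL-6 and 34.5% without). Among these, Gpx3 passed the filter only through WT. Gpx1, the main cytosolic form, was at 168 and 188 FPKM in IL-6-treated KO and 168 and 179 in untreated KO, against 407 and 421 in IL-6-treated WT and 414 and 406 in untreated WT. KO stood at 43.0% of WT with IL-6 and 42.3% without it (-1.22 ± 0.058, adjusted p = 9.02e-07 and -1.24 ± 0.058, adjusted p = 8.67e-07). Gpx4, which reduces lipid hydroperoxides in membranes and guards against ferroptosis, was at 279 and 293 FPKM in IL-6-treated KO and 279.7 and 290.3 in untreated KO, against 430.0 and 465 in IL-6-treated WT and 485 and 472 in untreated WT (-0.64 ± 0.049, adjusted p = 1.23e-05 with IL-6 and -0.75 ± 0.049, adjusted p = 5.57e-06 without). Its 50-base stretches are 61.7% shared with the pseudogene Gpx4-ps2, which was listed at up to 177 FPKM and was also lower in KO (-0.73 ± 0.065 without IL-6), so how reads were divided between them is uncertain. Gpx3, the secreted form, was low, at 0.334 and 0.482 FPKM in IL-6-treated KO and 0.323 and 0.566 in untreated KO, against 2.43 and 2.86 in IL-6-treated WT and 1.76 and 1.77 in untreated WT (-1.37 ± 0.12, adjusted p = 2.46e-05 with IL-6 and -0.94 ± 0.12, adjusted p = 0.000214 without).

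Gpx7 and Gpx8 are forms of the endoplasmic reticulum. Gpx7 was called in no comparison. Gpx8 was at 115 and 114 FPKM in IL-6-treated KO and 111 and 113 in untreated KO, against 95.9 and 99.3 in IL-6-treated WT and 109.7 and 114 in untreated WT. It was higher in KO with IL-6 (0.23 ± 0.037, adjusted p = 0.000796) and fell slightly with IL-6 in WT (-0.20 ± 0.037, adjusted p = 0.0125). The fall in WT ended without untreated WT library 2 or WT with IL-6 library 1 (adjusted p = 0.0663 to 0.0678) and with a fit of only the groups compared (adjusted p = 0.0707). The difference of changes (0.23 ± 0.052, adjusted p = 0.0467) ended without any 1 of the 8 libraries (adjusted p = 0.0632 to 0.143) and under 4 other settings (adjusted p = 0.0503 to 0.109).

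The 6 peroxiredoxins, thiol peroxidases fed by thioredoxin or glutathione, split 3 ways. Prdx1, an abundant cytosolic form and a known NRF2 target, was at 598 and 608 FPKM in IL-6-treated KO and 607 and 593 in untreated KO, against 979 and 962 in IL-6-treated WT and 902 and 906 in untreated WT. It was lower in KO (-0.69 ± 0.033, adjusted p = 9.53e-07 with IL-6 and -0.59 ± 0.033, adjusted p = 2.34e-06 without). Prdx5 and Prdx6 were higher in KO. Prdx5 was at 276 and 263 FPKM in IL-6-treated KO and 259 and 281 in untreated KO, against 209 and 208 in IL-6-treated WT and 158 and 165 in untreated WT (0.37 ± 0.049, adjusted p = 0.000293 with IL-6 and 0.74 ± 0.049, adjusted p = 6.15e-06 without). In WT it rose with IL-6 (0.37 ± 0.049, adjusted p = 0.00307), and the difference of changes (-0.37 ± 0.070, adjusted p = 0.0261) ended without either untreated WT library, either WT with IL-6 library, untreated KO library 2 or either KO with IL-6 library (adjusted p = 0.0563 to 0.0946) and under 3 other settings (adjusted p = 0.0582 to 0.0783). Prdx5 overlaps Trmt112 on the opposite strand. Prdx6, which reduces phospholipid peroxides with glutathione, was at 75.4 and 68.0 FPKM in IL-6-treated KO and 71.6 and 74.8 in untreated KO, against 31.7 and 34.9 in IL-6-treated WT and 47.4 and 45.8 in untreated WT (1.08 ± 0.065, adjusted p = 3.38e-06 with IL-6 and 0.64 ± 0.065, adjusted p = 6.94e-05 without). It fell with IL-6 in WT (-0.47 ± 0.065, adjusted p = 0.00346), and the difference of changes (0.44 ± 0.092, adjusted p = 0.0364) ended without either untreated WT library, WT with IL-6 library 1, either untreated KO library or KO with IL-6 library 1 (adjusted p = 0.0863 to 0.115) and under 3 other settings (adjusted p = 0.0643 to 0.105).

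Prdx2 and Prdx4 were called in no comparison, with 255 to 278 FPKM in KO and 261 to 298 in WT for Prdx2, and 197 to 208 in KO and 202 to 211 in WT for Prdx4. Prdx3, the mitochondrial form, had 37.3 to 38.5 FPKM in KO and 32.3 to 37.3 in WT. Its call with IL-6 (0.16 ± 0.058, adjusted p = 0.0384) ended without WT with IL-6 library 1, either untreated KO library or either KO with IL-6 library (adjusted p = 0.0544 to 0.217) and under 3 other settings (adjusted p = 0.0599 to 0.0741).

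Thioredoxins supply electrons to peroxiredoxins and ribonucleotide reductase. The 5 genes grouped here with them (Txn1, Txn2, Txnrd1, Txnrd2 and Srxn1) were all lower in KO in both conditions. Of all genes tested, 34.8% were lower in KO with IL-6 and 34.5% without it. Txn1, cytosolic thioredoxin, was at 214 and 205 FPKM in IL-6-treated KO and 212 and 204 in untreated KO, against 378 and 402 in IL-6-treated WT and 346 and 349 in untreated WT (-0.89 ± 0.043, adjusted p = 9.05e-07 with IL-6 and -0.74 ± 0.043, adjusted p = 2.73e-06 without). Txnrd1, its NADPH-dependent reductase and a selenoprotein, was at 61.8 and 64.4 FPKM in IL-6-treated KO and 63.2 and 59.2 in untreated KO, against 96.9 and 101 in IL-6-treated WT and 85.6 and 84.3 in untreated WT (-0.64 ± 0.046, adjusted p = 8.69e-06 with IL-6 and -0.47 ± 0.046, adjusted p = 5.31e-05 without). Both rose by small steps with IL-6 in WT (0.16 ± 0.043 for Txn1 and 0.22 ± 0.046 for Txnrd1). For Txn1 that call ended without either untreated WT library, WT with IL-6 library 2, either untreated KO library or either KO with IL-6 library (adjusted p = 0.0604 to 0.171) and under 7 other settings (adjusted p = 0.0503 to 0.141). For Txnrd1 it ended without either untreated WT library or either WT with IL-6 library (adjusted p = 0.0505 to 0.103) and with a fit of only the groups compared (adjusted p = 0.0521).

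Srxn1 encodes sulfiredoxin, which rescues over-oxidized peroxiredoxins. It was at 14.4 and 11.9 FPKM in IL-6-treated KO and 11.7 and 12.9 in untreated KO, against 22.7 and 21.99 in IL-6-treated WT and 21.3 and 20.1 in untreated WT (-0.72 ± 0.089, adjusted p = 0.000191 with IL-6 and -0.71 ± 0.089, adjusted p = 0.000231 without). Of the mitochondrial pair, Txnrd2 was at 5.88 and 6.21 FPKM in IL-6-treated KO and 6.18 and 6.07 in untreated KO, against 9.78 and 8.25 in IL-6-treated WT and 9.73 and 8.23 in untreated WT (-0.50 ± 0.098, adjusted p = 0.00229 with IL-6 and -0.48 ± 0.098, adjusted p = 0.00292 without). Txn2 was at 83.2 to 89.9 FPKM in KO and 92.7 to 103 in WT. With IL-6 its difference was -0.20 ± 0.057, a call that ended without WT with IL-6 library 2 or KO with IL-6 library 1 (adjusted p = 0.0717 to 0.0918) and with equal total FPKM per library (adjusted p = 0.0913). Without IL-6 the difference was -0.17 ± 0.057, and that call ended without untreated WT library 1 or untreated KO library 1 (adjusted p = 0.144 to 0.165) and under 3 other settings (adjusted p = 0.0541 to 0.0680).

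Among the superoxide dismutases, the copper-zinc cytosolic Sod1 was even and the other members were lower in KO. Sod1 was at 477 and 486 FPKM in IL-6-treated KO and 478 and 465 in untreated KO, against 474 and 521 in IL-6-treated WT and 505 and 509.5 in untreated WT. With IL-6 the KO and WT libraries overlapped, and no comparison was called (-0.05 ± 0.048, adjusted p = 0.415 for KO minus WT with IL-6 and -0.10 ± 0.048, adjusted p = 0.0877 without). Of its 50-base stretches 23.1% occur in the copy Gm8566. Sod2, the manganese enzyme of mitochondria (chr17:13006846-13040063), was at 30.7 and 31.6 FPKM in IL-6-treated KO and 28.8 and 29.0 in untreated KO, against 119 and 123 in IL-6-treated WT and 61.5 and 56.3 in untreated WT. KO libraries were below all WT libraries, and IL-6 separated the WT libraries. The KO minus WT difference was -1.92 ± 0.049, adjusted p = 3.11e-08 with IL-6 and -0.999 ± 0.049, adjusted p = 1.11e-06 without. In WT the IL-6 change was 1.03 ± 0.049, adjusted p = 3.67e-05, in KO 0.10 ± 0.049, adjusted p = 0.705, and the changes differed (-0.92 ± 0.069, adjusted p = 0.000843).

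Most of the Sod2 sum came from transcripts that are annotated as not coding, Sod2-204 (retained intron) and Sod2-207 (processed transcript). The coding transcript Sod2-201 averaged 2.64 FPKM in IL-6-treated KO and 2.23 in untreated KO, against 13.5 in IL-6-treated WT and 6.97 in untreated WT. The same order of groups held for Sod2-207, at 15.0 in IL-6-treated KO and 13.9 in untreated KO, against 55.3 in IL-6-treated WT and 27.2 in untreated WT.

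Sod3, the secreted dismutase, was at 9.97 and 10.2 FPKM in IL-6-treated KO and 8.86 and 10.1 in untreated KO, against 118 and 115 in IL-6-treated WT and 75.0 and 74.7 in untreated WT. Its KO level was 8.67% of WT with IL-6 and 12.7% without it (-3.40 ± 0.060, adjusted p = 4.84e-09 and -2.86 ± 0.060, adjusted p = 1.29e-08). It rose with IL-6 in WT (0.63 ± 0.060, adjusted p = 0.000634), and the difference of changes (-0.55 ± 0.085, adjusted p = 0.0124) ended without untreated WT library 2, WT with IL-6 library 1 or KO with IL-6 library 1 (adjusted p = 0.0503 to 0.0538). Catalase (Cat), which splits hydrogen peroxide in peroxisomes, was at 30.3 and 30.8 FPKM in IL-6-treated KO and 31.8 and 31.6 in untreated KO, against 30.1 and 31.1 in IL-6-treated WT and 35.2 and 34.9 in untreated WT. Its small differences (KO minus WT without IL-6 -0.14 ± 0.038, IL-6 in WT -0.19 ± 0.038) were not stable. The first ended without untreated KO library 2 (adjusted p = 0.0514) and with equal total FPKM per library (adjusted p = 0.0554). The change with IL-6 ended without either untreated WT library or WT with IL-6 library 1 (adjusted p = 0.0580 to 0.0833) and with a fit of only the groups compared (adjusted p = 0.0700).

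**Figure D4:**
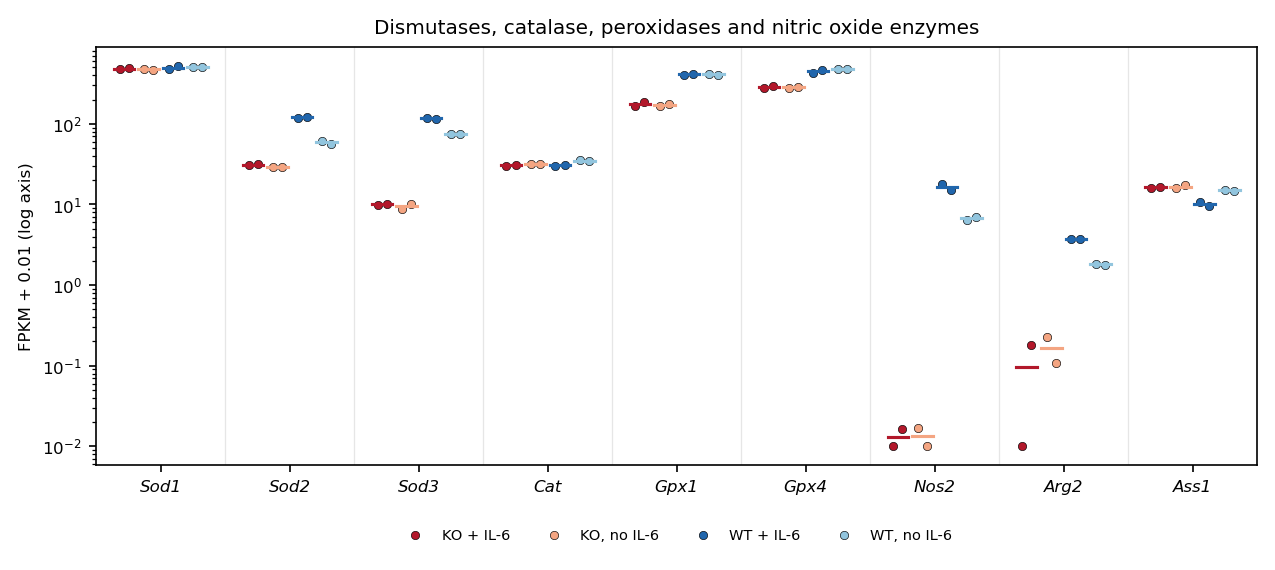
FPKM + 0.01 on a log axis for superoxide dismutases, catalase, Gpx1, Gpx4 and genes of nitric oxide and arginine use in the 8 libraries; points are libraries and lines the mean of 2. Sod2, Sod3, Nos2 and Arg2 are lowest in KO and highest in WT with IL-6, while Sod1 lies between 465 and 521 FPKM in all 4 groups.

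Among the nitric oxide and arginine genes, Nos2 and Arg2 were lower in KO and Ass1 was not. Nos2, inducible nitric oxide synthase (chr11:78920787-78960254), was at 0 and 0.00650 FPKM in IL-6-treated KO and 0.00670 and 0 in untreated KO, against 17.8 and 14.9 in IL-6-treated WT and 6.46 and 6.98 in untreated WT. In fragments that is 0 or 1 in each KO library, about 2708 and 2290 in IL-6-treated WT and 1004 and 1177 in untreated WT. The KO libraries are at the limit of detection, so no fold against them is given. Within WT, Nos2 rose with IL-6 (1.16 ± 0.096, adjusted p = 0.000324). The fitted KO minus WT difference was -4.11 ± 0.096, adjusted p = 2.17e-08 with IL-6 and -2.94 ± 0.096, adjusted p = 1.25e-07 without, and the difference of changes was -1.16 ± 0.14, adjusted p = 0.00406, values that depend on the pseudocount. Summed macrophage markers moved with Nos2, at 5.07 to 5.26 FPKM in IL-6-treated KO and 4.13 to 4.37 in untreated KO, against 35.6 to 36.2 in IL-6-treated WT and 19.1 to 19.4 in untreated WT. Of that list 2 of 10 genes were tested, Cd14 made up most of the sum, Cd68 was at 2.23 to 3.04 FPKM in WT, Adgre1 was at 0 in every library and Ptprc was at most 0.00556. The part of other cells in the Nos2 result was not tested beyond these values.

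Nos3, the endothelial synthase, was not tested, with 0.120 to 0.167 FPKM in KO and 0.0374 to 0.0965 in WT. Arg1, the liver-type arginase, was also under the filter, with 0.0207 to 0.132 FPKM in KO and 0.293 to 0.567 in WT. Arg2, the mitochondrial arginase, was at 0 and 0.171 FPKM in IL-6-treated KO and 0.216 and 0.0972 in untreated KO, against 3.74 and 3.72 in IL-6-treated WT and 1.80 and 1.78 in untreated WT. It was lower in KO (-2.13 ± 0.11, adjusted p = 1.24e-06 with IL-6 and -1.27 ± 0.11, adjusted p = 2.34e-05 without). It rose with IL-6 in WT (0.76 ± 0.11, adjusted p = 0.00390), a call that ended with a pseudocount of 0.1 (adjusted p = 0.194). The difference of changes (-0.85 ± 0.15, adjusted p = 0.0205) ended without either untreated WT library, either WT with IL-6 library, untreated KO library 1 or KO with IL-6 library 1 (adjusted p = 0.0596 to 0.0710) and under 2 other settings (adjusted p = 0.0561 to 0.214). Arg2 overlaps Vti1b on the opposite strand.

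Ass1, argininosuccinate synthase, which rebuilds arginine from citrulline, moved the other way from Nos2 in WT. It was at 16.1 and 16.6 FPKM in IL-6-treated KO and 15.8 and 17.4 in untreated KO, against 10.7 and 9.57 in IL-6-treated WT and 15.2 and 14.9 in untreated WT. In WT it fell with IL-6 (-0.53 ± 0.068, adjusted p = 0.00255), in KO it was not called (-0.02 ± 0.068, adjusted p = 0.978), and KO minus WT was 0.64 ± 0.068, adjusted p = 8.25e-05 with IL-6 and 0.14 ± 0.068, adjusted p = 0.107 without. The difference of changes (0.50 ± 0.096, adjusted p = 0.0274) ended without either untreated WT library, WT with IL-6 library 2, untreated KO library 1 or either KO with IL-6 library (adjusted p = 0.0754 to 0.0978) and under 2 other settings (adjusted p = 0.0560 to 0.0740). Of the Ass1 50-base stretches 55.3% occur in Gm5424, whose values moved alike (-0.51 ± 0.077, adjusted p = 0.00505 for IL-6 in WT), so the division of reads between the pair is uncertain.

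**Figure D5:**
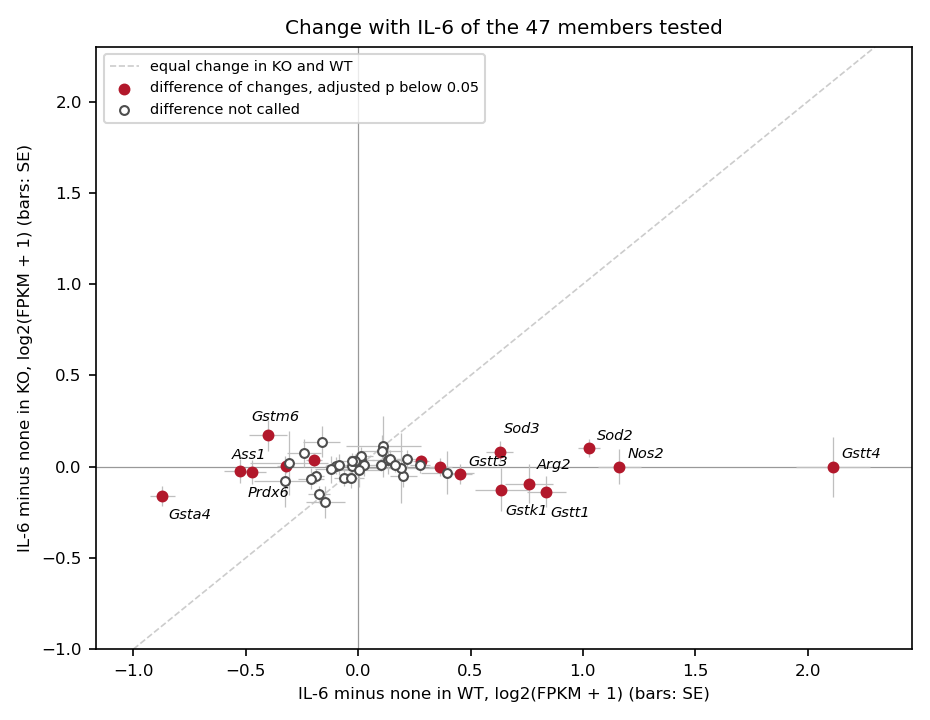
Change with IL-6 in KO and in WT for the tested members on the log2(FPKM + 1) scale, with standard errors from limma. In KO the points lie near 0 and none was called, while in WT Gstt4, Nos2 and Sod2 show the largest rises and Gsta4 the largest fall.

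Of the 13 members that rose with IL-6 in WT, 3 did so by at least 2-fold on the log2(FPKM + 1) scale (Gstt4, Nos2 and Sod2). Of all genes tested, 1.05% were called at that size in either direction. That scale shrinks folds at low levels. In plain FPKM the WT means with and without IL-6 were 3.73 and 1.79 for Arg2, and 2.07 and 0.966 for Gstk1. The other members that rose were Gstt1, Arg2, Gstk1, Sod3, Gstt3, Prdx5, Gsr, Nfe2l2, Txnrd1 and Txn1, all named above with their values. The 8 that fell were Gsta4, Ass1, Prdx6, Gstm6, Gsto1, Gstz1, Gpx8 and Cat. When library totals of FPKM were set equal, 12 members rose and 11 fell with IL-6 in WT, and the share of all calls that were rises moved to 34.7%, against 52.8% without that scaling. For the difference of changes that scaling gave 6 members with a more positive and 8 with a more negative change in KO, and 55.1% of all calls more positive, against 41.9% without it.

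For the lists of related genes that follow, all genes tested are the background. Of these, 36.9% were higher and 34.8% lower in KO with IL-6, and 36.4% higher and 34.5% lower without it. With IL-6 in WT, 8.30% rose and 7.41% fell. The median difference of all genes was 0.0117 with IL-6 and 0.0069 without it. Among 21 tested NRF2 targets that are not members, 12 were lower and 6 higher in KO in each condition, with a median difference of -0.38 with IL-6 and -0.43 without it. Cbr3, Ugdh and Fth1, given next, are all from the lower side. The 6 higher targets are given by count only for KO against WT. Cbr3, a carbonyl reductase, was at 1.25 and 1.08 FPKM in IL-6-treated KO and 1.22 and 0.784 in untreated KO, against 19.7 and 19.3 in IL-6-treated WT and 20.3 and 20.2 in untreated WT (-3.42 ± 0.10 without IL-6). Ugdh, which makes UDP-glucuronate, was at 61.5 and 59.5 FPKM in IL-6-treated KO and 57.6 and 58.5 in untreated KO, against 232 and 226 in IL-6-treated WT and 187 and 193 in untreated WT (-1.70 ± 0.037 without IL-6). Fth1, ferritin heavy chain, was at 1121 and 1099.8 FPKM in IL-6-treated KO and 977 and 1023 in untreated KO, against 5879 and 6002 in IL-6-treated WT and 2650.0 and 2703 in untreated WT. Fth1 was lower in KO (-1.42 ± 0.040 without IL-6) and higher with IL-6 in WT (1.15 ± 0.040, adjusted p = 1.97e-05). Hmox1, heme oxygenase 1, also rose with IL-6 in WT (0.56 ± 0.040, adjusted p = 0.000158), one of 4 targets that rose there while 2 fell.

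Of 19 NRF2 regulators, 4 were higher and 8 lower in KO with IL-6, and 7 were higher and 8 lower without it (median difference -0.11 with IL-6 and -0.01 without). Nfe2l3, a factor related to NRF2, was higher in KO (3.17 ± 0.063 without IL-6), and the small MAF partner Mafk was lower (-0.85 ± 0.057). With IL-6 in WT, Maff rose (0.72 ± 0.088, adjusted p = 0.00203) among 2 rises and 4 falls.

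In glutathione supply and recycling, 9 of 21 tested genes were higher and 11 lower in KO with IL-6, and 9 higher and 10 lower without it (median difference -0.49 with IL-6 and -0.15 without). Chac1, a glutathione-degrading cyclotransferase, was higher (1.70 ± 0.093 without IL-6) and the cell-surface dipeptidase Dpep1 lower (-2.21 ± 0.10). Oplah, which recycles 5-oxoproline, and Cth, which makes cysteine, rose with IL-6 in WT (0.63 ± 0.051 and 0.62 ± 0.089), 2 of 4 that did. Among 9 microsomal and other transferases, Mgst1 was higher in KO (2.37 ± 0.054 without IL-6), and Mgst3 (-2.18 ± 0.069) and the prostaglandin E synthase Ptges (-3.74 ± 0.11) were lower. In that list 4 were higher and 4 lower in KO with IL-6, and 4 higher and 3 lower without it (median difference 0.02 with IL-6 and 0.20 without).

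Of 22 thioredoxin-linked genes, 11 were higher and 7 lower in KO with IL-6, and 9 higher and 8 lower without it (median difference 0.14 with IL-6 and 0.12 without). Nxn, nucleoredoxin, and Selenop, the selenium carrier, were higher in KO (1.96 ± 0.055 and 1.52 ± 0.045 without IL-6). Both are from the higher side of this list, and its lower genes are given by count only. Of 8 tested genes for NADPH oxidases and other oxidant sources, 2 were higher and 4 lower in KO with IL-6, and 2 higher and 5 lower without it (median difference -0.18 with IL-6 and -0.24 without). Maoa, a monoamine oxidase that releases hydrogen peroxide, was higher in KO (2.06 ± 0.043 with IL-6), and Xdh, xanthine dehydrogenase, was lower (-1.40 ± 0.054 with IL-6). Xdh had 16.4 and 15.7 FPKM in IL-6-treated KO and 13.1 and 12.9 in untreated KO, against 45.8 and 42.3 in IL-6-treated WT and 15.6 and 16.3 in untreated WT. It rose with IL-6 in WT (1.41 ± 0.054, adjusted p = 1.97e-05) with a different change in KO (-1.13 ± 0.076, adjusted p = 0.000598).

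Among 23 tested genes of nitric oxide and arginine use outside the members, 12 were higher and 5 lower in KO with IL-6, and 11 higher and 6 lower without it (median difference 0.22 with IL-6 and 0.13 without). Slc7a2, a cationic amino acid carrier that imports arginine, was higher in KO. It stood at 18.8 and 18.4 FPKM in IL-6-treated KO and 17.6 and 17.7 in untreated KO, against 1.58 and 1.32 in IL-6-treated WT and 1.12 and 1.48 in untreated WT (3.002 ± 0.090 with IL-6). Gch1, the first enzyme for tetrahydrobiopterin, the cofactor of nitric oxide synthases, was lower in KO. Its level was 2.66 and 2.54 FPKM in IL-6-treated KO and 2.42 and 2.18 in untreated KO, against 14.5 and 12.1 in IL-6-treated WT and 10.2 and 11.1 in untreated WT (-1.99 ± 0.093 with IL-6). In WT, 2 of the 23 rose with IL-6 and 5 fell, Oat (0.19 ± 0.035) and Odc1 (0.16 ± 0.036) being the 2 that rose, and Nos1ap had the single differing change (0.68 ± 0.16, adjusted p = 0.0485).

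The 10 members below the filter reached at most 1.19 FPKM in any library (Gstp2). They are Arg1, Nos3, Gpx2, Gpx5, Gpx6, Gsta1, Gsta2, Gstm3, Gstp2 and Gstp3. Gpx2 and Gpx5 were listed at 0 in all 8 libraries. Gsta1, Gsta2, Gstp2 and Gstm3 share 28.8% to 89.7% of their 50-base stretches with other genes, so that the few fragments counted for them cannot be assigned with certainty.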

How the data were processed

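Poly(A)-selected, strand-marked RNA libraries of mouse embryonic fibroblasts were sequenced, 2 per group. Per the submitters' processing notes, reads were aligned with HISAT2 to GRCm38.p6 and quantified with Cufflinks 2.2.1; the annotation and the strand setting are not given in the sources used here. The authors deposited 1 table per library with an FPKM value for each of 142869 transcripts. No library repeats another, and no column of values was left out (0).

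From these values, transcript FPKM was summed per gene name (55358 genes), since Cufflinks divides reads between transcripts of a gene by estimate. Genes with at least 1 FPKM in at least 2 of 8 libraries (13693) were tested on log2(FPKM + 1) with limma 3.58.1 (R 4.3.3), with a mean for each group, spread shared by the 8 libraries (4 residual degrees of freedom), intensity-trended empirical Bayes moderation, and Benjamini-Hochberg adjustment at 0.05 over all 13693 genes. Only the fit for KO against WT without IL-6 was tried on simulated log2 values, and the other comparisons and steps were not. Standard errors are those of limma. FPKM values carry no counts, so depth was fitted from low values of single-transcript genes: 91.9% to 94.59% of them fell within 0.1 of a whole number of fragments at 36700000 to 46200000 fragments per library. These are fitted estimates that cover transcripts with 1 model only, and no count test was run.

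Gene positions, transcript types and shared 50-base stretches came from the GENCODE annotation of GRCm38, and promoter windows from RefSeq (GRCm38.p6). Values in every library are given for the central enzymes and for each further member called with a difference of at least 0.5 on the log2 scale in any comparison; other members are given by range and count, and pathway lists by counts with up to 4 called genes of smallest p. The members, the pathway lists and the tests were chosen with earlier results of these data known, so a pattern among them is no independent support. Alternatives covered scaling, pseudocount, expression filter, intensity trend, a block for replicate number, a fit of only the groups compared, and leaving out each library. Replicate numbers did not pair the samples: deviations of same-numbered libraries from their group means correlated between -0.0973 and 0.0549 across genes. Pearson correlation of log2 values between the 2 libraries of a group, across genes, was 0.9927 to 0.9935.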

Additional observations from a re-analysis of the deposited data

Results flagged for a closer look

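For 16 of the 47 tested members, the change with IL-6 in KO minus the change with IL-6 in WT passed an adjusted p of 0.05 in the limma interaction test, where 6.06% of all genes tested did. In 10 of them the change was more negative in KO: Gstt4 (-2.11), Nos2 (-1.16), Gstt1 (-0.97), Sod2 (-0.92), Arg2 (-0.85), Gstk1 (-0.76), Sod3 (-0.55), Gstt3 (-0.50), Prdx5 (-0.37) and Nfe2l2 (-0.25), all on the log2(FPKM + 1) scale. In 6 it was more positive: Gsta4 (0.71), Gstm6 (0.57), Ass1 (0.50), Prdx6 (0.44), Gsto1 (0.32) and Gpx8 (0.23). Each of these 10 rose with IL-6 in WT and each of the 6 fell there, while none of the 16 was called in KO. The difference subtracts the WT change, and the KO changes were small. Its sign therefore follows from the WT change in all 16 and is no separate result.

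Gstt4 and Nos2 were at or near 0 fragments in the KO libraries, so their interaction values restate the change in WT. The call held in every alternative run for Gsta4, Gstt1, Gstt4, Nos2 and Sod2. The other 11 lost it in at least 1 alternative. Sex-linked genes and epithelial and mesothelial markers differ between the KO and WT libraries, and their part in these differences cannot be told apart from that of Arid5a.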

How the results depend on the processing

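Across 114 member calls in 4 comparisons and 2019 recomputed values, 1833 kept their direction and call, 186 kept the direction and lost the call, and 0 reversed; 85 of the 114 calls held in every alternative. By comparison that was 35 of 40 for KO against WT with IL-6, 32 of 37 without IL-6, 13 of 21 for IL-6 in WT and 5 of 16 for the difference of the IL-6 changes. The number of members called for the difference of changes was 16, and it was 9 with no expression filter, 10 with the replicate number as a block, and 6 to 9 when 1 library was left out. Without each library it was 8 (untreated KO library 1), 8 (untreated KO library 2), 7 (KO with IL-6 library 1), 8 (KO with IL-6 library 2), 8 (untreated WT library 1), 6 (untreated WT library 2), 6 (WT with IL-6 library 1) and 9 (WT with IL-6 library 2). Since replicate numbers do not pair the samples, the block result says nothing of a weaker effect; it called 40 members for KO against WT with IL-6, 36 without IL-6 and 20 for IL-6 in WT. The other counts stayed within 1.5 times the reported ones, at 33 to 40 for KO against WT with IL-6, 31 to 38 without IL-6, 14 to 24 for IL-6 in WT and 0 for IL-6 in KO. Over all genes, IL-6 in WT gave 2150 calls and 938 in a fit of only the groups compared. The causes of these shifts were not tested. With 2 libraries per group, levels below 1 FPKM rest on few fragments, and the fit assumes that a lone library left in a group varies like the others.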

Other observations

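Outside the members, the neighbours of the theta-class block were checked after its values were seen. Of 7 tested genes within 100 kb, Ddt and Mif (2 of 7) had an IL-6 change that differed between KO and WT (-0.66 ± 0.051, adjusted p = 0.000916 for Ddt and -0.68 ± 0.084, adjusted p = 0.00512 for Mif in the limma interaction test). The share of all genes tested with such a difference was 6.06%. Cabin1, Smarcb1 and Mmp11, on the far sides of the same window, were lower in KO (-0.74 ± 0.049, -0.61 ± 0.053 and -0.77 ± 0.061 with IL-6) and were not called for IL-6 in WT. Within 100 kb of the mu-class block, 5 genes that are not members were tested. Of these 5, 2 were lower and 1 higher in KO in each condition. Over all genes tested, 34.8% were lower and 36.9% higher with IL-6, and 34.5% and 36.4% without it. The IL-6 change differed between KO and WT for 1 of the 5.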
